A study of Mus musculus with 8 samples.

Results

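The genes described here encode lysosomal hydrolases, lysosomal membrane proteins, the subunits of the vacuolar proton pump (V-ATPase) and the 3 transcription factors of the MiT/TFE family that are known to drive lysosomal genes. They were taken as a list of 52 symbols set by known function and not by a threshold on measured values, and each symbol was matched to its Ensembl identifier. All 52 were found among the 55487 genes of the deposited table, and all 52 passed the filter on low counts. By role they were 6 membrane proteins, 11 proteases, 8 glycosidases or sulfatases, 8 proteins of lipid handling or luminal cofactors, 3 MiT/TFE regulators, 6 subunits of the membrane sector V0, 8 subunits of the cytosolic sector V1 and 2 accessory proteins of the pump.

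Gene expression was measured by RNA-seq in bone marrow-derived dendritic cells (BMDC) grown from female C57BL/6J mice aged 6 to 8 weeks, in 20 ng/ml GM-CSF for 10 days by the labels and for 9 to 10 days by the study's methods. The sample titles carry the prefix WT in both groups, read here as wild type. In the group BMDC-fer (4 libraries), dye-labelled BMDC were cultured for 4 h with Jurkat cells, an established human T-cell leukaemia line, that had been driven into ferroptosis by 0.5 µM of the GPX4 inhibitor ML162 for 14 h, and the BMDC that had engulfed them were sorted. The BMDC group (4 libraries) was untreated, and no sort is described for it, so co-culture, uptake and sorting cannot be told apart in this comparison. The study calls its samples independently collected, and the sources used here do not say whether they came from separate mice or cultures, so p-values measure only the spread between these libraries. The study asked what engulfing ferroptotic cells does to dendritic cells, and the lysosome is where engulfed material ends.

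Lysosomes break down engulfed and internal material with acid hydrolases that work in the low pH set by the V-ATPase, whose V1 sector splits ATP and whose V0 sector carries protons across the membrane. Cathepsins and legumain cut proteins, glycosidases and sulfatases strip sugars and sulfates, and lysosomal acid lipase, ceramidase, sphingomyelinase and the saposins made from prosaposin handle lipids. TFEB, TFE3 and MITF bind a short palindrome found before many lysosomal genes and leave the cytoplasm for the nucleus when mTORC1 is inactive, so that their activity is set by location as well as by amount. In dendritic cells, lysosomal proteolysis is also part of antigen processing.

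The libraries held between 39326672 and 50532209 counts, and the lowest count of any member in any library was 351. Replicates 1 and 2 separated from replicates 3 and 4 in each group, and this split ran through the values of the lysosomal genes. Values are therefore given for each library in the order of replicates 1 to 4, and effects also within each pair of replicates. Levels of single genes are in CPM, counts scaled to the library's TMM-adjusted total.

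The 52 genes together took 3.60%, 4.36%, 5.89% and 5.82% of all counts in the BMDC libraries. They took 5.61%, 6.22%, 6.53% and 6.63% in the BMDC-fer libraries. BMDC replicates 1 and 2 were the lowest libraries, and BMDC replicates 3 and 4 lay above BMDC-fer replicate 1, so the groups overlapped. Most of this share came from Psap, Ctsb and Ctsd, which together made up between 1.83% and 3.64% of a library.

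**Figure D1:**
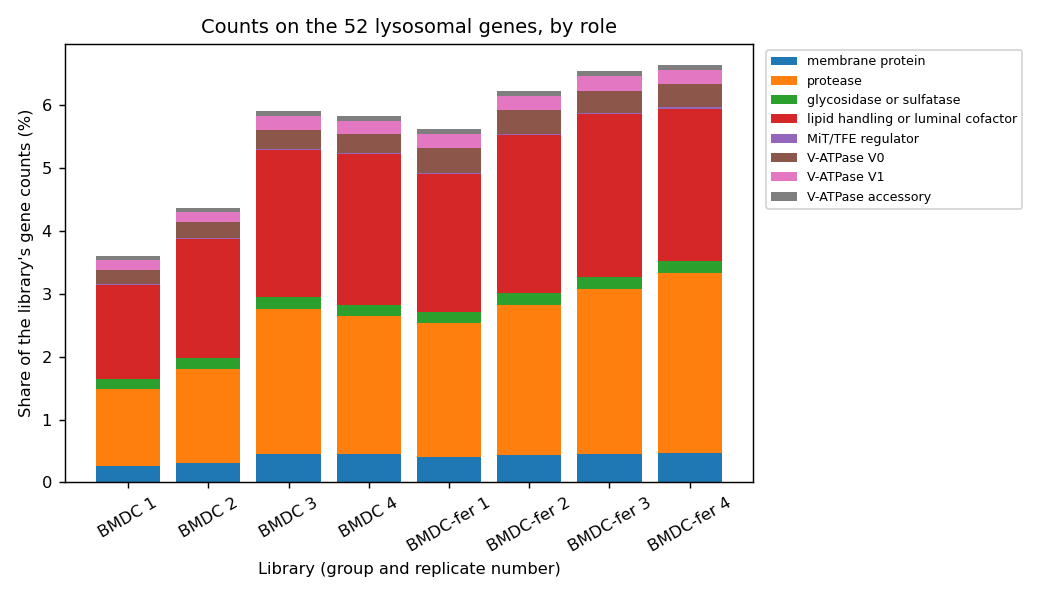
Share of each library's gene counts (percent, vertical axis) that fell on the 52 lysosomal genes, stacked by role, for the 4 BMDC and the 4 BMDC-fer libraries. The shares run from 3.60% in BMDC replicate 1 to 6.63% in BMDC-fer replicate 4, and proteases and the lipid handling or cofactor genes fill most of each bar.

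Per kilobase of exon (FPKM), the highest levels were those of Psap, the precursor of the saposins that present lipids to hydrolases, at 6141 in BMDC and 7620 in BMDC-fer. It was followed by Ctss, the cathepsin known for trimming invariant chain in antigen-presenting cells, at 2148 and 2926 FPKM. Ctsd, the main aspartic protease of lysosomes, came next at 1854 and 2573 FPKM. The regulators were among the lowest in level, with Tfeb at 6.46 and 10.4 FPKM and Mitf at 6.95 and 11.9 FPKM. The lowest mean level of the 52 genes was that of Smpd1, the acid sphingomyelinase, at 3.86 and 3.87 FPKM.

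Between BMDC-fer and BMDC, 5 of the 52 genes rose and 0 fell: Tfeb, Mitf, Lipa, Atp6v0a1 and Atp6v1e1. Calling required an edgeR quasi-likelihood p of at most 0.05 after Benjamini-Hochberg adjustment over 15411 genes, and a log2 fold change that reached 0.58 in size. Over all tested genes, 3.47% were called up and 5.91% down. At an unadjusted p of at most 0.05, 18 members lay higher and 0 lower, beside 13.7% and 16.2% of all tested genes. DESeq2 called 8 members up and 0 down, beside 5.6% and 9.07% of all tested genes. The estimated log2 fold change was above 0 for 49 of the 52 genes, with a median of 0.32 beside 0.0007 over all tested genes, and it was below 0 for Ctsc, Man2b1 and Ppt1. In 15 members all 4 BMDC-fer libraries lay above all 4 BMDC libraries, beside 11.3% of all tested genes. The two-sided exact permutation p was 0.0286 for each, the smallest that 4 against 4 libraries can give. Complete separation always gives this p, so it adds nothing to the separation itself.

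With the replicate number as a block, 6 members were called up and 0 down, beside 4.85% and 8.13% of all tested genes. Tfeb, Mitf, Lipa and Atp6v1e1 were called in both fits, Atp6v0a1 was lost, and Ctsl and Atp6v0d2 were gained. Of the 5 called genes, Tfeb was called without any single library. The others were lost in between 3 and 7 of the 8 fits that left out a library, and without BMDC-fer replicate 2 or without BMDC-fer replicate 4 only Tfeb was called.

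**Figure D2:**
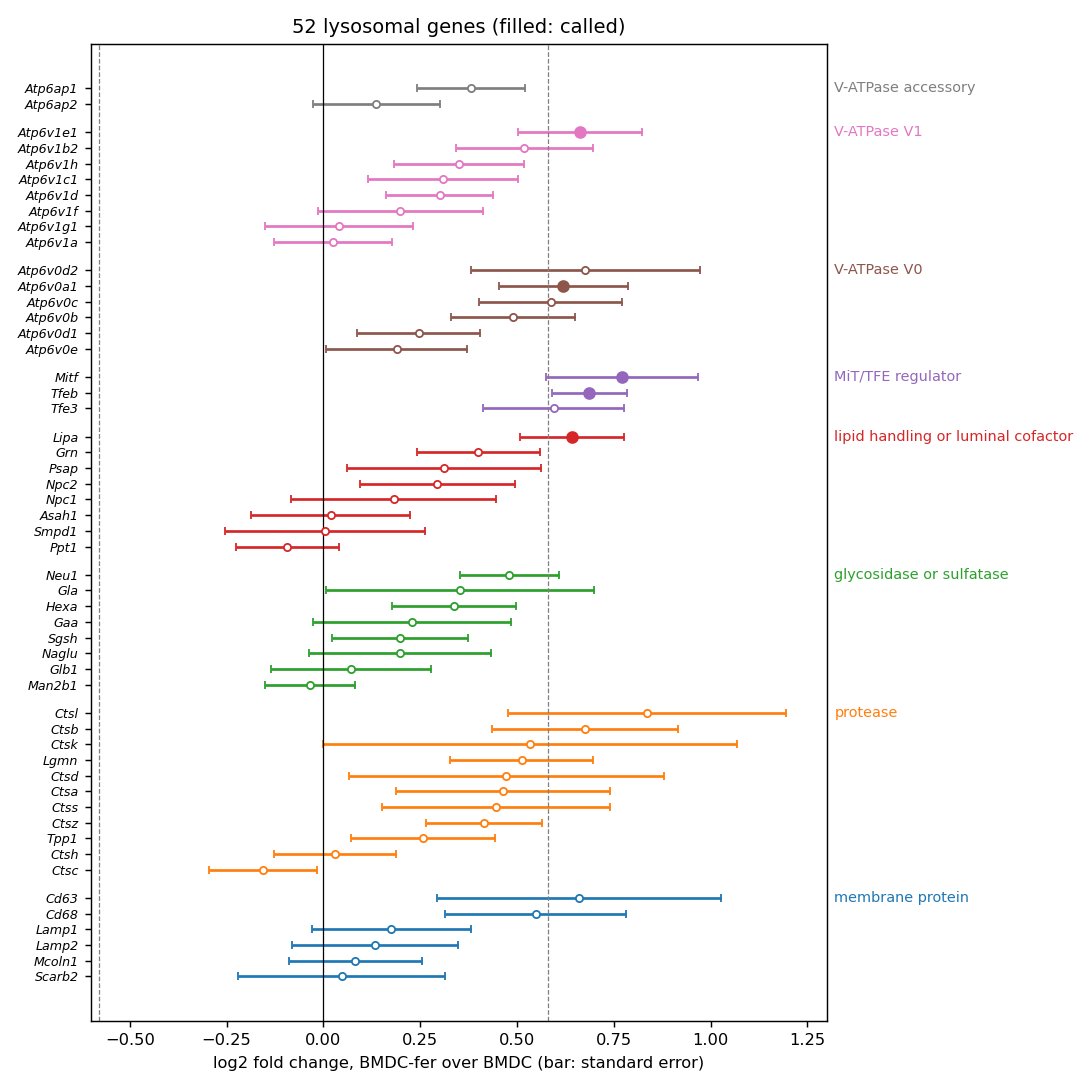
Log2 fold change of BMDC-fer over BMDC (horizontal axis, bars are standard errors) for the 52 genes grouped by role, with called genes filled and dashed lines at the fold change threshold of 0.58 in each direction. Of the 52 estimates, 49 lie above 0, and the 5 filled points are Tfeb, Mitf, Lipa, Atp6v0a1 and Atp6v1e1.

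Among the MiT/TFE regulators, 2 of 3 rose. Tfeb, the best studied activator of lysosomal genes, lay at 33.5, 39.8, 36.5 and 36.7 CPM in BMDC and at 54.4, 62.8, 57.5 and 61.1 CPM in BMDC-fer. Every BMDC-fer library was higher than every BMDC library, and replicates 1 and 2 did not stand apart from 3 and 4. Its log2 fold change was 0.69 ± 0.10 (SE, n = 4 per group, edgeR adjusted p = 0.00577), and it was 0.68 within replicates 1 and 2 and 0.70 within replicates 3 and 4.

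Mitf, known from pigment cells and osteoclasts, lay at 27.2, 40.3, 50.1 and 54.6 CPM in BMDC and at 72.1, 72.2, 71.9 and 77.7 CPM in BMDC-fer. The groups did not overlap, and the BMDC libraries were spread more widely than the BMDC-fer libraries. The log2 fold change was 0.77 ± 0.20 (SE, n = 4 per group, edgeR adjusted p = 0.0387), with 1.10 within replicates 1 and 2 and 0.51 within replicates 3 and 4.

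Tfe3, the third factor, which shares targets with TFEB, was not called, with a log2 fold change of 0.60 ± 0.18 (SE, n = 4 per group, edgeR adjusted p = 0.0672). It lay at 105, 93.3, 61.4 and 62.9 CPM in BMDC and at 124, 115, 119 and 130 CPM in BMDC-fer. The groups did not overlap, and BMDC replicates 3 and 4 were the lowest libraries. Its log2 fold change was 0.27 within replicates 1 and 2 and 1.00 within replicates 3 and 4, and the difference between the pairs passed the interaction test (edgeR adjusted p = 0.00209).

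**Figure D3:**
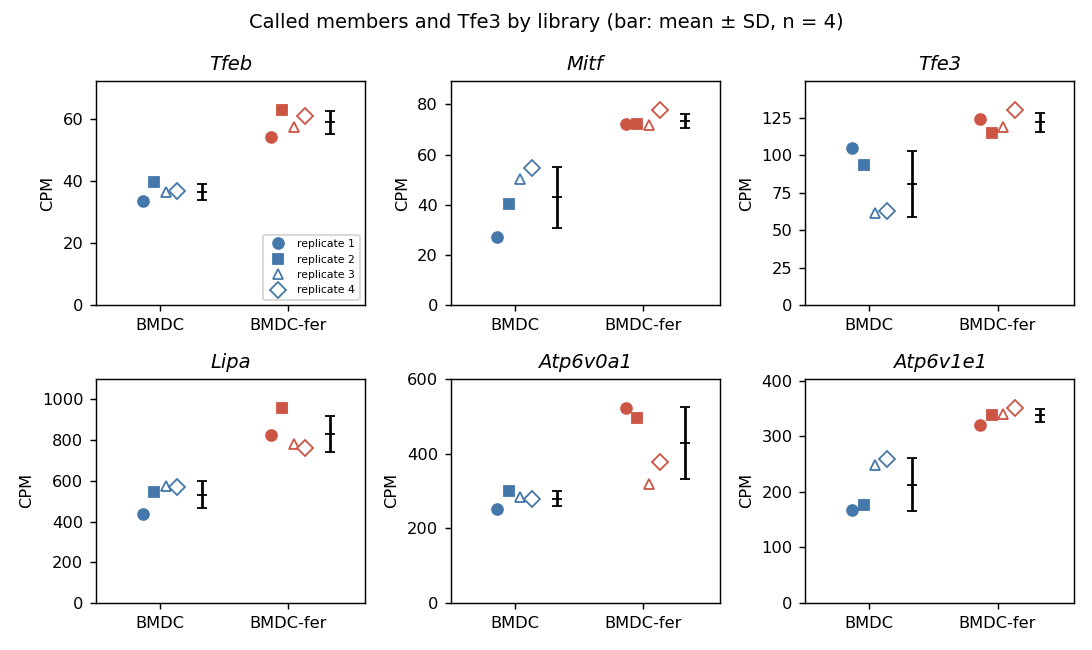
Level in CPM (vertical axes) in each library (points; filled for replicates 1 and 2, open for replicates 3 and 4) with mean ± SD per group (n = 4) for the 5 called genes and Tfe3. In each of the 6 panels every BMDC-fer library lies above every BMDC library.

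A palindrome of the letters TCACGTGA, the site that TFEB and its relatives are known to bind, and its core CACGTG (the E-box, which every TCACGTGA contains), were searched in RefSeq promoters (GRCm38.p6, 250 bases before to 50 bases after the start). Either motif reads the same on both strands. Of the 52 members, 43 had a promoter in the table. TCACGTGA stood in 7 of the 43 (16.3%), beside 1.12% of 27025 genes, and CACGTG stood in 15 of the 43 (34.9%), beside 8.09%. The 7 promoters with TCACGTGA, and that of Lamp1, which had 4 E-boxes, are shown around the motifs, the former because they carry the full site and the latter for its number of cores, 5′ to 3′ on the gene's strand, with TCACGTGA or CACGTG in capitals.
Mcoln1, chr8:3500462-3500491 (+): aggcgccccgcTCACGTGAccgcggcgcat
Ctsa, chr2:164833749-164833795 (+): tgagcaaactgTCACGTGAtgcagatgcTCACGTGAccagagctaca
Ctsd, chr7:142387908-142387937 (-): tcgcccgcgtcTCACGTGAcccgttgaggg
Gla, chrX:134601182-134601244 (-): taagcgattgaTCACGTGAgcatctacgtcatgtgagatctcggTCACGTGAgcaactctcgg
Atp6v0d1, chr8:105566050-105566079 (-): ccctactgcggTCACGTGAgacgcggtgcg
Atp6v0e, chr17:26676387-26676416 (+): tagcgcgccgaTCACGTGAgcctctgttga
Atp6v1a, chr16:44139373-44139402 (-): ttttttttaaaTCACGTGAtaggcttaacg
Lamp1, chr8:13159089-13159162 (+): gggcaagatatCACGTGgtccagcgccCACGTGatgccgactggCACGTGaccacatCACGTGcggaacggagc

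None of these 8 genes was called, beside 3.47% of all tested genes called up. Within replicates 1 and 2, Ctsa, Ctsd, Gla and Atp6v0d1 were called up, while Mcoln1, Atp6v0e, Atp6v1a and Lamp1 were not. All tested genes were called up there at 9.36%, and 30 of the 52 members were called up there. Of the 5 called members, all of which had a promoter in the table, 0 held either motif in this window. For CACGTG the share was 8.09% of all genes and 34.9% of the 43 members with a promoter. Sets of 8 and of 5 genes are too small for a count of 0 to be told apart from these shares. The median log2 fold change was 0.23 for the 15 members with CACGTG and 0.39 for the 28 without it. A match of letters describes the window and is not a binding site, and the absence of a match covers these 300 bases alone.

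Of the 8 proteins of lipid handling or luminal cofactors, 1 rose, 0 fell and 7 did not pass. Lipa, the acid lipase that frees fatty acids and cholesterol from esters and triglycerides, lay at 438, 547, 576 and 570 CPM in BMDC and at 826, 958, 780 and 762 CPM in BMDC-fer, without overlap. Its log2 fold change was 0.64 ± 0.14 (SE, n = 4 per group, edgeR adjusted p = 0.0215), with 0.86 within replicates 1 and 2 and 0.43 within replicates 3 and 4. Without BMDC replicate 1 or without BMDC-fer replicate 2, its estimate of 0.57 fell short of the threshold, and without BMDC-fer replicate 4 it was 0.69 with an edgeR adjusted p of 0.0509.

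Psap, which has the highest level of all, was not called (log2 fold change 0.31 ± 0.25, SE, n = 4 per group, edgeR adjusted p = 0.436). It lay at 11204, 14100, 20532 and 21568 CPM in BMDC and at 18614, 21667, 22584 and 20768 CPM in BMDC-fer. BMDC replicates 1 and 2 were low and the other 6 libraries overlapped. Ppt1, which removes palmitate from proteins, had the lowest estimate of this role at -0.09 ± 0.13 (SE, n = 4 per group, edgeR adjusted p = 0.669). Npc1 and Npc2, which export cholesterol from the lysosome, had estimates of 0.18 and 0.29, and Grn, the progranulin precursor, one of 0.40; none of these was called.

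Of the 11 proteases, 0 rose and 0 fell by the unblocked test, with log2 fold changes between -0.16 and 0.84. Ctsl, the cysteine protease cathepsin L, had the highest estimate of all members. It lay at 634, 828, 1873 and 1647 CPM in BMDC and at 1619, 1934, 2433 and 2907 CPM in BMDC-fer, where the lowest BMDC-fer library fell below BMDC replicates 3 and 4. The log2 fold change was 0.84 ± 0.36 (SE, n = 4 per group, edgeR adjusted p = 0.158). Blocking on the replicate number gave 0.94 with an edgeR adjusted p of 0.0266. The estimate was 1.28 within replicates 1 and 2 and 0.60 within the other pair, and it was called in each.

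Ctsd lay at 1968, 2542, 6417 and 6508 CPM in BMDC and at 4512, 5237, 7163 and 7281 CPM in BMDC-fer. Replicates 3 and 4 were higher than replicates 1 and 2 in both groups. The log2 fold change was 0.47 ± 0.41 (SE, n = 4 per group, edgeR adjusted p = 0.466), with 1.11 within replicates 1 and 2 and 0.16 within replicates 3 and 4.

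Ctss lay at 1938, 1954, 3877 and 3898 CPM in BMDC and at 3222, 3244, 4713 and 4715 CPM in BMDC-fer. BMDC replicates 3 and 4 lay above BMDC-fer replicates 1 and 2, so the groups overlapped although each same-numbered library was higher in BMDC-fer. Its log2 fold change was 0.45 ± 0.29 (SE, n = 4 per group, edgeR adjusted p = 0.34). Ctsc, which activates serine proteases, had the lowest estimate of all members, at -0.16 ± 0.14 (SE, n = 4 per group, edgeR adjusted p = 0.484), and its libraries lay between 460 and 645 CPM. Ctsb, with an estimate of 0.68 and no overlap between groups, was called by DESeq2 and not by edgeR (adjusted p = 0.0274 and 0.0994).

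Of the 8 glycosidases or sulfatases, 0 rose and 0 fell. Neu1, the lysosomal sialidase, lay at 77.7, 93.7, 112 and 110 CPM in BMDC and at 129, 143, 137 and 138 CPM in BMDC-fer. The groups did not overlap, and the log2 fold change of 0.48 ± 0.13 (SE, n = 4 per group, edgeR adjusted p = 0.0442) passed the test and fell short of the fold change threshold. Man2b1, the acid alpha-mannosidase, had the lowest estimate of this role at -0.03 ± 0.12 (SE, n = 4 per group, edgeR adjusted p = 0.866). The remaining 6, which include Hexa and Gla, had estimates between 0.07 and 0.35.

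Of the 6 membrane proteins, 0 rose and 0 fell. Cd63, a tetraspanin of late endosomes and lysosomes, had the highest estimate, 0.66 ± 0.37 (SE, n = 4 per group, edgeR adjusted p = 0.259). It lay at 389, 380, 1114 and 1053 CPM in BMDC and at 1123, 1023, 1240 and 1255 CPM in BMDC-fer, so that BMDC replicates 1 and 2 stood alone below the other 6 libraries. Scarb2, the receptor that carries glucocerebrosidase to the lysosome, had the lowest estimate, 0.05 ± 0.27 (SE, n = 4 per group, edgeR adjusted p = 0.921). Lamp1 and Lamp2, the most abundant lysosomal glycoproteins, had estimates of 0.18 and 0.13, and the calcium channel gene Mcoln1 one of 0.08. In Cd68 alone of this role the groups did not overlap, with an estimate of 0.55 ± 0.23 (SE, n = 4 per group, edgeR adjusted p = 0.156). The Cd68 estimate was 0.99 within replicates 1 and 2, where it was called, and 0.23 within replicates 3 and 4.

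Of the 16 pump genes, 2 rose and 0 fell, and all 16 estimates were above 0, with a median log2 fold change of 0.33. Within replicates 1 and 2 all 16 were above 0, with a median of 0.71. Within replicates 3 and 4 there were 9 above 0, with a median of 0.06. In the V0 sector, Atp6v0a1, a form of the subunit that carries the proton path, lay at 253, 300, 285 and 280 CPM in BMDC and at 523, 497, 320 and 377 CPM in BMDC-fer. The groups did not overlap, and BMDC-fer replicates 1 and 2 were the highest libraries. The log2 fold change was 0.62 ± 0.17 (SE, n = 4 per group, edgeR adjusted p = 0.0454), with 0.88 within replicates 1 and 2 and 0.30 within replicates 3 and 4. Blocking on the replicate number gave 0.59 with an edgeR adjusted p of 0.0569.

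Atp6v0d2, the form of subunit d known from osteoclasts and macrophages, lay at 282, 343, 668 and 653 CPM in BMDC and at 636, 684, 903 and 890 CPM in BMDC-fer. BMDC replicates 3 and 4 lay above BMDC-fer replicate 1, so the groups overlapped. Its log2 fold change was 0.68 ± 0.30 (SE, n = 4 per group, edgeR adjusted p = 0.163). Blocking on the replicate number gave 0.76 with an edgeR adjusted p of 0.0318. Its common counterpart Atp6v0d1 had an estimate of 0.25, and Atp6v0e had the lowest of this sector at 0.19 ± 0.18 (SE, n = 4 per group, edgeR adjusted p = 0.515).

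In the V1 sector, Atp6v1e1, a subunit of the stalks that join V1 to V0, lay at 168, 176, 249 and 260 CPM in BMDC and at 321, 339, 340 and 351 CPM in BMDC-fer, again without overlap. Its log2 fold change was 0.66 ± 0.16 (SE, n = 4 per group, edgeR adjusted p = 0.0326), with 0.94 within replicates 1 and 2 and 0.44 within replicates 3 and 4. Atp6v1a, the subunit that splits ATP, had the lowest estimate at 0.02 ± 0.15 (SE, n = 4 per group, edgeR adjusted p = 0.928), while Atp6v1b2, its partner in the catalytic ring, had one of 0.52 without overlap between groups and was not called. Of the accessory genes, Atp6ap1 had an estimate of 0.38 ± 0.14 and Atp6ap2 one of 0.14 ± 0.16 (SE, n = 4 per group, edgeR adjusted p = 0.105 and 0.605).

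Within replicates 1 and 2, 30 of the 52 members were called up and 0 down, beside 9.36% of all tested genes called up there, with a median log2 fold change of 0.67. Within replicates 3 and 4, 3 were called up (Tfeb, Tfe3 and Ctsl) and 0 down, beside 16.8% of all tested genes called up there, with a median of 0.06. Both fits pool their spread over the 8 libraries. Tfeb and Ctsl were called in both pairs.

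The interaction of group and replicate pair passed for 40 of the 52 members (edgeR adjusted p of 0.05 or less). For 37 of them the effect was smaller in replicates 3 and 4, beside 18.3% of all tested genes, and for 3 (Tfe3, Man2b1 and Sgsh) it was larger, beside 19.5%. The largest gap was that of Cd63, with 1.48 within replicates 1 and 2 and 0.20 within replicates 3 and 4 (edgeR adjusted p = 0.000144 for the difference). In Atp6v1g1, a stalk subunit, the sign turned, from 0.55 to -0.42 (edgeR adjusted p = 0.00026 for the difference). By role, the difference passed in 15 of the 16 pump genes, 6 of 6 membrane proteins, 9 of 11 proteases, 6 of 8 glycosidases or sulfatases and 3 of 8 genes of lipid handling or cofactors. For Tfeb the pairs differed by 0.02 (edgeR adjusted p = 0.931).

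**Figure D4:**
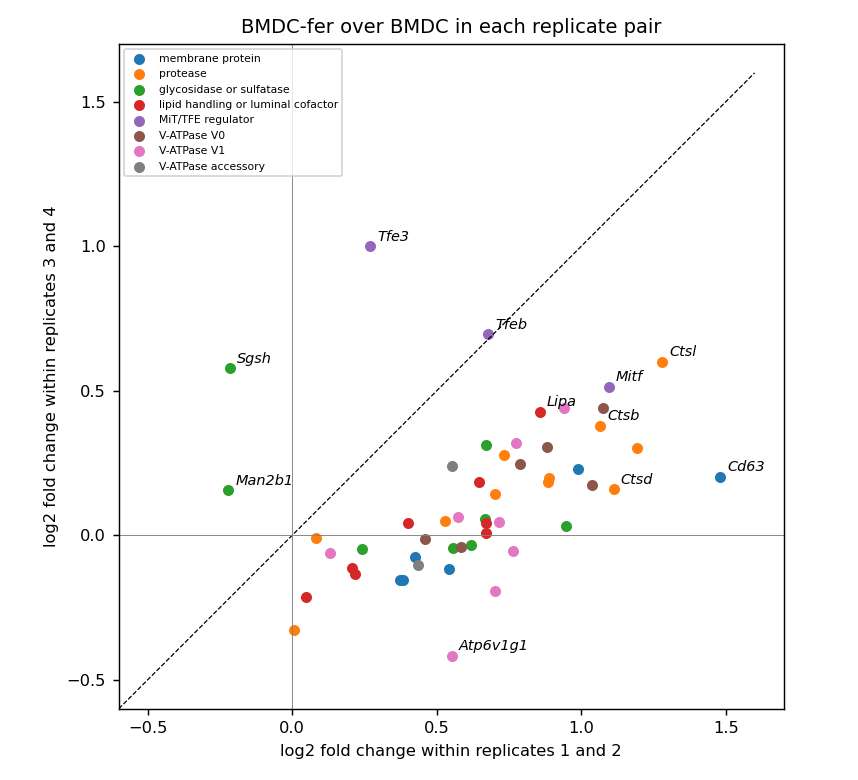
Log2 fold change of BMDC-fer over BMDC within replicates 1 and 2 (horizontal axis) and within replicates 3 and 4 (vertical axis) for the 52 genes, coloured by role, with a dashed line where the pairs are equal. Of the points, 48 lie below the line and 4 above it, and the median is 0.67 on the horizontal and 0.06 on the vertical axis.

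The untreated libraries differed between the pairs as well. In BMDC, both replicates 3 and 4 lay above both replicates 1 and 2 in 46 of the 52 members, beside 39.3% of all tested genes, with a median log2 ratio of 0.64. In BMDC-fer this held for 25 members, beside 34.6% of all tested genes, with a median log2 ratio of 0.10. The ratio in BMDC was greatest for Ctsk, the cathepsin known from osteoclasts, at 3.91-fold, and lowest for Tfe3 at 0.627-fold. For Tfeb it was 0.999-fold.

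Of 106 further genes of the pathway, 94 were tested, of which 12 rose and 6 fell, beside the 3.47% and 5.91% of all tested genes given above. With the replicate block all 18 were called, and Acp2, Acp5 and Tcirg1 were added as higher and Ctse, Stfa2 and Gm5483 as lower. Without the block, 50 of the 94 estimates were above 0 and 44 below, with a median log2 fold change of 0.06. By list, the median was 0.007 for hydrolases, 0.25 for membrane and transport genes and 0.07 for MiT/TFE control. It was -0.05 for V-ATPase genes and -1.54 for inhibitors of cysteine proteases. In the list of MiT/TFE control, 4 of 20 tested genes rose (Fnip2, Tfec, Lamtor3 and Flcn) and 0 fell. Of the 20 estimates, 12 were above 0 and 8 below. The lowest was that of Fnip1 at -0.66, which was not called. The Fnip1 estimate was 0.02 within replicates 1 and 2 and -1.14 within replicates 3 and 4, where it was called down. The list includes the mTORC1 anchor, the folliculin complex and Tfec, which is itself a relative of the factors. Fnip2, a partner of folliculin, lay at 145, 178, 168 and 166 CPM in BMDC and at 317, 287, 284 and 321 CPM in BMDC-fer, without overlap, with a log2 fold change of 0.88 ± 0.10 (SE, n = 4 per group, edgeR adjusted p = 0.0034). Its estimate was 0.90 within replicates 1 and 2 and 0.86 within replicates 3 and 4. Tfec, a relative of Tfeb, had an estimate of 0.78, Lamtor3, a subunit of the mTORC1 anchor, 0.75, and Flcn, folliculin itself, 0.62, and each was called with the block as well.

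Of 31 further hydrolases tested, 3 rose (Pla2g15, Hgsnat and Dpp7) and 1 fell. Pla2g15, a lysosomal phospholipase, had a log2 fold change of 0.93 ± 0.25 (SE, n = 4 per group, edgeR adjusted p = 0.0433).

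Of 24 further membrane and transport genes tested, 4 rose (Slc11a1, Igf2r, Cln3 and Ctns) and 0 fell. Slc11a1, a metal ion transporter of phagosomes, lay at 55.4, 54.8, 63.8 and 59.8 CPM in BMDC and at 147, 115, 103 and 136 CPM in BMDC-fer, without overlap (log2 fold change 1.10 ± 0.13, SE, n = 4 per group, edgeR adjusted p = 0.0034). Of 9 further V-ATPase genes tested, 0 rose and 1 fell, Ncoa7 (-0.74 ± 0.16, SE, n = 4 per group, edgeR adjusted p = 0.0247). Tcirg1, which encodes another form of V0 subunit a, lay at 531, 605, 1043 and 963 CPM in BMDC and at 1347, 1265, 1236 and 1436 CPM in BMDC-fer, without overlap. It was not called, with a log2 fold change of 0.75 ± 0.23 (SE, n = 4 per group, edgeR adjusted p = 0.0638), and with the block it was 0.81 with an edgeR adjusted p of 0.046.

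Of 10 inhibitors of cysteine cathepsins tested, 1 rose and 4 fell. Cstb, cystatin B, rose by 0.86 ± 0.20 on the log2 scale (SE, n = 4 per group, edgeR adjusted p = 0.0273). Cst3, the secreted cystatin C, lay at 4087, 2653, 1731 and 1624 CPM in BMDC and at 1517, 996, 788 and 704 CPM in BMDC-fer, without overlap, with a log2 fold change of -1.33 ± 0.35 (SE, n = 4 per group, edgeR adjusted p = 0.0437). BC100530, a stefin gene, had a log2 fold change of -3.41 ± 0.87 (SE, n = 4 per group, edgeR adjusted p = 0.0387), and Stfa1 and Stfa2l1 fell by 2.65 and 2.76. The stefins belong to near-identical gene copies, so their counts are uncertain one by one, and their fall went with that of neutrophil markers described next.

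**Figure D5:**
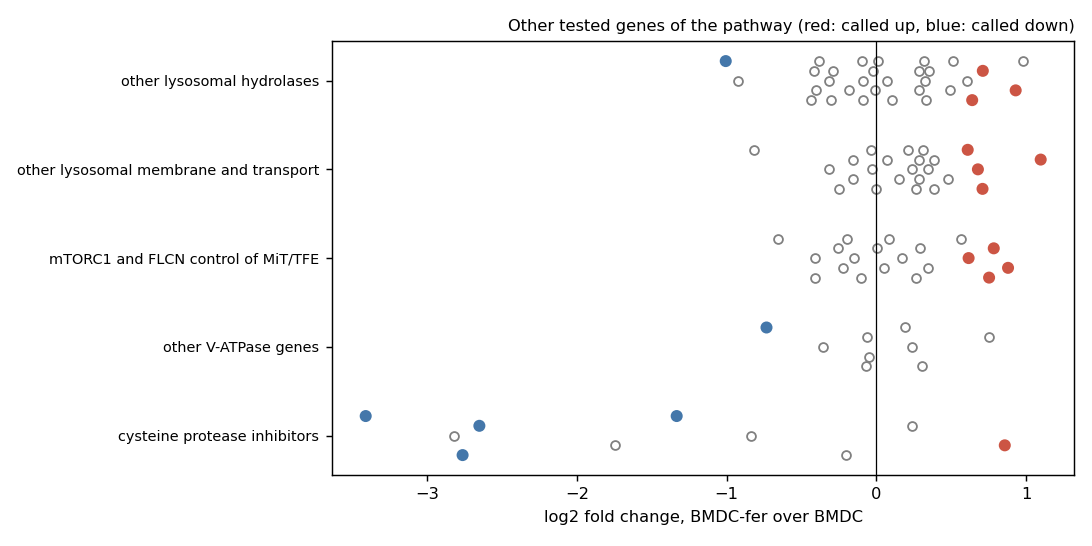
Log2 fold change of BMDC-fer over BMDC (horizontal axis) for the 94 tested further genes in 5 lists, with 1 point per gene; red points rose, blue points fell and open points were not called. The list of MiT/TFE control, which includes the relative Tfec, and the membrane and transport genes have red points alone among their called genes. The inhibitors of cysteine proteases have 4 blue points and 1 red.

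Marker genes of cell types also differed between groups and libraries. The 9 dendritic cell markers summed to between 7421 and 15398 CPM in BMDC and between 3940 and 8360 CPM in BMDC-fer, and 2 of 9 fell (Flt3 and Irf4), or 5 with the replicate block, which added Zbtb46, H2-Ab1 and Cd74. BMDC replicate 1, with the lowest share of lysosomal counts, had the highest dendritic cell sum, and BMDC replicates 3 and 4 had 7744 and 7421 CPM. Cd74 and H2-Ab1 made up most of that sum, while Itgax ran the other way in BMDC, at 943, 787, 1305 and 1407 CPM. Markers of mature dendritic cells summed to between 1549 and 2261 CPM in BMDC and between 239 and 1414 CPM in BMDC-fer, and 4 of 9 fell (Ccr7, Fscn1, Cd86 and Ccl22), or 7 with the block. Macrophage markers summed to between 2171 and 3770 CPM and between 2740 and 4944 CPM; 0 of 11 rose and 1, Adgre1, fell. The other 10 macrophage estimates were above 0, and the median log2 fold change of the list was 0.49.

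Neutrophil markers summed to 265, 46.5, 236 and 63.3 CPM in BMDC, where replicates 1 and 3 were the high ones, and to between 14.6 and 44.2 CPM in BMDC-fer, and 6 of 10 fell (Elane, Prtn3, Ngp, S100a9, Ly6g and Retnlg), or 10 with the block. T-cell markers summed to between 29.4 and 42.9 CPM and between 29.1 and 53.7 CPM, and most of each sum was Cd28. Cd28 was not called (log2 fold change 0.28), with a BMDC mean of 31.8 CPM and a BMDC-fer mean of 38.8 CPM. Lck fell at a low level, from a mean of 0.870 to 0.287 CPM, as did Cd3g with the block. Bcl11b and Themis had 0 counts in all 8 libraries. Mast cell or basophil markers summed to between 34.1 and 65.3 CPM and between 14.5 and 33.1 CPM, with 0 called and Cpa3 lower with the block, and B-cell markers to at most 1.44 CPM. In bulk samples fewer cells of a type and less RNA per cell cannot be told apart, and the part of cell type composition in the lysosomal results was not tested.

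Some members share sequence or exon positions with other genes of the annotation (GENCODE M21). How reads of such stretches were counted is not given in the sources used here. Of the distinct runs of 50 bases in the longest transcript, 36.6% in Ctsd also occur in the overlapping gene model Gm49369, 19.2% in Atp6v1g1 occur in Gm12344 or Gm13453, and 12.2% in Atp6v0c occur in its pseudogenes. The shares were 12.5% for Atp6v1f, 9.03% for Cd63 and 6.9% for Ctsl, and 5% or less for the other 46 members, which include all 5 called genes. Whether reads were counted by strand is not given in the sources used here, and Ctsb, Ctsa, Sgsh, Hexa, Atp6v0b and Lamp1 share between 9.31% and 21.6% of their exon bases with genes of the opposite strand. Ctsl shares 26.9% with Gm49230 on its own strand and Gm47123 on the other. Without strand, reads of such pairs cannot be told apart. All these shares compare mouse genes with one another. The BMDC-fer cells had engulfed human Jurkat cells, and whether human reads entered the counts of the members in that group was not tested.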

How the data were processed

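Reads from 4 BMDC and 4 BMDC-fer libraries were mapped by the authors with HISAT2 and counted per gene with featureCounts, and the authors deposited the raw counts of mouse genes. The submitters' processing notes also name CASAVA, DESeq2 and the build mm10. The annotation, the strand setting and the treatment of multi-mapping reads are not given in the sources used here. Symbols, positions and exon lengths came from GENCODE M21 (GRCm38), and promoters from RefSeq. Libraries were grouped by their labels.

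The tests were run in edgeR 4.0.16 under R 4.3.3 (TMM, quasi-likelihood test, filterByExpr with a count minimum of 10), which kept 15411 genes. Calls needed a Benjamini-Hochberg adjusted p up to 0.05 and a log2 fold change of at least 0.58 in size, as in the study's methods. Replicate pair and group were also fitted with their interaction. Exact permutation tests used log2(CPM + 0.05). DESeq2 1.42.0, other normalizations and filters, the replicate block, a covariate for the pairs, a test against the fold change threshold and each library left out were alternatives.

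The main fit used no block and no pairing. For the replicate block, the shared replicate numbers of the labels were taken to pair the samples. Deviations from the group means of same-numbered libraries correlated across genes with r of 0.446, 0.355, 0.313 and 0.343. Libraries of the same replicate pair with other numbers correlated as well, with r between 0.186 and 0.38. In replicates 3 and 4 other numbers correlated more: r was 0.343 for BMDC replicate 3 with BMDC-fer replicate 4, and 0.38 for BMDC replicate 4 with BMDC-fer replicate 3. The values thus separate the pairs 1 and 2 from 3 and 4 more than single numbers, and the block rests on the labels there. Blocked results are given where they change a member's call or a count. No 2 libraries agree within sampling noise: chi-square per gene between replicates was at least 9.06. The 3-count floor was between 0.0594 and 0.0763 CPM and covers counting error only, since the reads carry no molecular identifiers.

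Members and lists were chosen with earlier results of these data known. The genes named were the called members, the regulators, the highest and lowest estimate of each role, the 3 highest FPKM and, in each further list, the largest called rise and fall. A further gene that this rule covers is not reported here. Other genes (Cd68, Ctsb, Ctsk, Smpd1, Lamp1, Atp6v1b2, Atp6v1g1, Tcirg1, Cst3, Fnip1, Itgax, Lck, Cd28 and those given by an estimate alone) were named after their values were seen. Human counts were not analysed here.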

Additional observations from a re-analysis of the deposited data

Results flagged for a closer look

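For 40 of the 52 lysosomal genes the effect differed between replicates 1 and 2 and replicates 3 and 4 by edgeR's interaction test, as given above. Of 44 sets of 4 libraries checked for a library far from the others (the 21 members named by the rule and the summed share of member counts, in each group), 1 stood out: Mitf in BMDC-fer replicate 4, at 77.7 CPM beside 71.9 to 72.2 CPM in the other BMDC-fer libraries, where the gap made up 0.934 of the range. Chance marks about 1 in 20 such sets (2.2 of 44).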

How the results depend on the processing

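DESeq2 size factors, upper-quartile normalization and a count minimum of 50 left the 5 called members as they were, and the filter removed moved them to 4 (without Atp6v0a1). DESeq2 called 8 members (with Tfe3, Ctsb and Atp6v0c added), a covariate for the replicate pairs 13, adjusted p alone 6 (with Neu1 added), and the test against the fold change threshold 0. The replicate block gave 6 and changed the calls of Atp6v0a1, Ctsl and Atp6v0d2 among the members; in the 94 further genes it gave 15 up and 9 down in place of 12 and 6. Within replicates 1 and 2 alone there were 30 called members with a median log2 fold change of 0.67, and within replicates 3 and 4 alone 3, fits chosen after the data were seen. Leaving out a library gave between 1 and 4 called members, a median log2 fold change between 0.21 and 0.44, and between 23 and 43 members with an interaction (23, 25 and 25 without BMDC replicate 3, BMDC replicate 4 and BMDC-fer replicate 3); the lone library of a pair was then assumed to vary like the others. No member was called down in any of these fits.

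For all genes, up and down: 1191 and 1624 with the pair covariate, 41 and 184 against the threshold, 863 and 1398 with DESeq2, 1442 and 1993 within replicates 1 and 2, 2589 and 2503 within replicates 3 and 4, and, without a library, from 194 to 543 up and from 371 to 897 down. For the further genes: 1 up and 0 down against the threshold, 21 up within replicates 1 and 2, 10 down within replicates 3 and 4, and, without a library, from 7 to 12 up and from 1 to 6 down. The cause of these shifts was not tested. The fits that leave out a library also had fewer samples.

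Among the 21 members named by the rule, the sign of 7 with estimates near 0 turned; over all 52 members, 33 estimates were above 0 within replicates 3 and 4, in place of 49. Without a library, the log2 fold change ranged from -0.11 to 0.22 for Scarb2, from -0.073 to 0.031 for Man2b1, from -0.17 to 0.0016 for Ppt1 and from -0.070 to 0.10 for Atp6v1a. Within replicates 3 and 4 it was -0.15 for Scarb2, 0.16 for Man2b1, -0.013 for Atp6v0e, -0.060 for Atp6v1a and -0.10 for Atp6ap2, and within replicates 1 and 2 it was 0.0062 for Ctsc and 0.049 for Ppt1. The exact permutation count of 15 was the same with upper-quartile CPM. A pseudocount of 1 CPM gave 15 as well, which it had to, since it keeps the order of the libraries. The share of promoters with the motif was 16.3% for TCACGTGA and 34.9% for CACGTG.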
